A study of Mus musculus with 20 samples.

Results

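Mki67, Ccna2, Aurka, Top2a, Pcna and Cdc27 are markers and parts of the cell division machinery. They were taken by symbol as 6 of the 46329 gene rows of each count file, and all 6 were present in each of the 20 libraries. The libraries come from colorectal tissue of C57BL/6J mice 100 days old, in a study of the receptor tyrosine kinase gene Erbb2 in intestinal tumorigenesis. The 4 groups of 5 libraries, labelled as biological replicates, were tumors of Erbb2-deficient mice, adjacent non-tumor tissue of Erbb2-deficient mice, tumors of control mice and adjacent non-tumor tissue of control mice. Erbb2-deficient mice were ApcMin/+, Erbb2f/f, Tg(Vil1-cre). Control mice were ApcMin/+, Erbb2f/f littermates with no cre. All 4 groups thus share the floxed Erbb2 gene and ApcMin, a truncating Apc allele that gives rise to intestinal adenomas. The Vil1 promoter drives cre in intestinal epithelium, so other cells of a sample keep Erbb2, and the genotypes also differ by the cre transgene itself. Each sample is bulk RNA, in which fewer cells of a type and less RNA per cell cannot be told apart.

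Dividing cells pass through growth, DNA replication, a second gap phase and mitosis. Cyclin A2 (Ccna2) activates cyclin-dependent kinases in S phase and at the entry into mitosis, and Aurora A kinase (Aurka) matures the centrosomes and builds the spindle. Ki-67 (Mki67) coats mitotic chromosomes and is the standard histological marker of cycling cells, and topoisomerase II alpha (Top2a) untangles replicated DNA. PCNA (Pcna) is the sliding clamp of the replicative polymerases, and CDC27 (Cdc27) is a scaffold subunit of the anaphase-promoting complex, the ubiquitin ligase that ends mitosis. In the colon, division is confined to the lower crypt, and in ApcMin tumors active Wnt signaling keeps cells dividing.

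Each symbol stands for a row of the count table, which need not hold the transcript of that gene. The rows showed the pattern of stranded reads counted on the opposite strand. ND6, the mitochondrial protein gene whose strand differs from that of ND2, held 22599 to 199495 counts per library, and ND2 held 23 to 204. The housekeeping gene Gapdh averaged 3.85 counts. The counts on genes were 1071737 to 1944309 per library, or 2.51% to 3.45% of the reads in a file. Control tumors 2 and 3 were unlike the other 8 tumors in their marker rows. The 10 epithelial marker rows summed to 18.2 normalized CPM in control tumor 2, and to 297 to 739 in the other 9 tumors. The 8 smooth muscle rows summed to 511 CPM in control tumor 3, and to 162 to 248 in the other 9 tumors. Normalized CPM, the counts-per-million unit of edgeR, refers to the 7119 rows that passed the filter on low counts, after TMM scaling, and is not corrected for length. Levels are therefore not compared between rows.

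All 6 rows passed the filter, which asked for at least 7.95 CPM in 5 or more libraries. Mki67, Ccna2 and Aurka exceeded it in every library. Top2a exceeded it in 5 Erbb2-deficient tumors, 1 Erbb2-deficient adjacent library, 2 control tumors and 0 control adjacent libraries. Pcna did so in 5, 1, 3 and 1 libraries of the same groups in that order, and Cdc27 in 1, 0, 0 and 4. These 3 rows thus passed mainly through the groups in which they were high. All 6 genes lie on the minus strand. By GENCODE M21, Ccna2 on chromosome 3 shares 510 of its 4083 exon bases with exons of Exosc9, a subunit of the RNA exosome, on the other strand. The other rows have an opposite-strand neighbour within 1000 bases and no overlapping exon: Cstf1 and Fam210b for Aurka, Myl4 for Cdc27, AV099323 for Pcna, Gm45240 for Mki67 and Gm26394 for Top2a.

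The promoters of cell cycle genes often carry the motifs CCAAT, bound by NF-Y, and TTTGAA, the cell cycle homology element bound by the MuvB complexes. RefSeq promoters on assembly GRCm38.p6, which is another build than the mm39 named for the counts, were found for 5 of the 6 genes. Those of Mki67, Aurka and Top2a are shown because their rows were called higher in control tumors, and that of Cdc27 because its row was called lower there. The Ccna2 row was called higher there too, but its promoter was not found. A row need not hold the transcript of the gene whose promoter is shown. The promoters run from 250 bases before to 50 after the start, 5′ to 3′ on the gene's strand, and positions count from the start base as 0. Capitals mark CCAAT and also TTTGAA or TTCGAA in either direction.
Mki67, chr7:135716330-135716629, minus strand: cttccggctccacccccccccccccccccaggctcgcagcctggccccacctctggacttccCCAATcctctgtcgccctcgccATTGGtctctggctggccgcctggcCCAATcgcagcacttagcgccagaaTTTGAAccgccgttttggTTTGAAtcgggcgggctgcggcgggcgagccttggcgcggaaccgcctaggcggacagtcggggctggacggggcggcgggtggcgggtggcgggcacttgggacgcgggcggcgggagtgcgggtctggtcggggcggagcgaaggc
Aurka, chr2:172370521-172370820, minus strand: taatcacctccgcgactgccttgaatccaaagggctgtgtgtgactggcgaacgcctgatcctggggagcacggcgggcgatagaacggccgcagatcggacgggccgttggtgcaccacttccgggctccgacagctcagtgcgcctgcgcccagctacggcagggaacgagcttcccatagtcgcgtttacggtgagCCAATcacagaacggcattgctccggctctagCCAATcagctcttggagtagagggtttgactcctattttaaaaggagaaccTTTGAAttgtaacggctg
Top2a, chr11:99024140-99024439, minus strand: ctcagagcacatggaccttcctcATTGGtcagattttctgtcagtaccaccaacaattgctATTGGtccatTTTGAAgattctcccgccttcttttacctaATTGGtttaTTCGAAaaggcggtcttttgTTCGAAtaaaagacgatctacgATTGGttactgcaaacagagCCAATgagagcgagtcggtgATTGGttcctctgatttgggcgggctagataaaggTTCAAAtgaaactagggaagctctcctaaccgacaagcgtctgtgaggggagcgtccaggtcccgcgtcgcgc
Cdc27, chr11:104550571-104550870, minus strand: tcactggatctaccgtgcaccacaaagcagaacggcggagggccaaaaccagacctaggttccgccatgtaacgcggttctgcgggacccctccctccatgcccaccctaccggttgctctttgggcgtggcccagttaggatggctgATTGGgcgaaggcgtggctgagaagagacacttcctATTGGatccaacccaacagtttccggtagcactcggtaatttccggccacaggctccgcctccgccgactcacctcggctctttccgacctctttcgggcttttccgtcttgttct
The Mki67 window held TTTGAA in 2 places, first bases at -116 and -98 relative to the start, and CCAAT in 3. The Aurka window held TTTGAA once, at 32 within the transcribed part, and CCAAT in 2 places. The Top2a window held TTTGAA in 2 places, at -179 and -23, its variant TTCGAA in 2, at -140 and -120, and CCAAT in 6. The Cdc27 window held CCAAT in 2 places, and neither TTTGAA nor TTCGAA. The Pcna window (chr2:132253131-132253430) held CCAAT in 1 place, and also neither. Of 32851 promoters of this length, 37.4% held CCAAT, 17.9% TTTGAA and 1.56% the palindrome TTCGAA on either strand. The E2F motifs TTTGGCGC (0.514% of promoters) and TTTCGCGC (0.323%) matched none of these windows. A match of letters is not a shown binding site.

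The comparison of tumors with adjacent tissue addressed which rows mark tumors when the epithelium lacks Erbb2, and which do when it keeps it. In Erbb2-deficient mice Ccna2, Aurka and Pcna rose in tumors, by 1.71-fold, 1.86-fold and 2.16-fold. In control mice Mki67, Ccna2, Aurka and Top2a rose, by 2.04-fold, 1.61-fold, 1.80-fold and 3.64-fold, and Cdc27 fell 2.66-fold. The 3 called rows in Erbb2-deficient mice stand beside 27.5% of all 7119 rows called there (13.0% higher, 14.5% lower). The 5 called rows in control mice stand beside 21.6% (10.7% higher, 10.9% lower). The median log2 fold change of the 6 rows was 0.83 in Erbb2-deficient and 0.77 in control mice, against -0.06 and 0.07 over all rows tested. The members were chosen with earlier results of these data known. Top2a, Pcna and Cdc27 also passed the filter mainly through the groups in which they were high. The medians and shares are therefore a description and carry no test. At an unadjusted p under 0.05 there were 5 of the 6 rows in each genotype, beside 39.4% of all rows in Erbb2-deficient and 35.3% in control mice. These tests are edgeR's quasi-likelihood F test with Benjamini-Hochberg adjustment over all 7119 rows, called at adjusted p under 0.05.

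**Figure D1:**
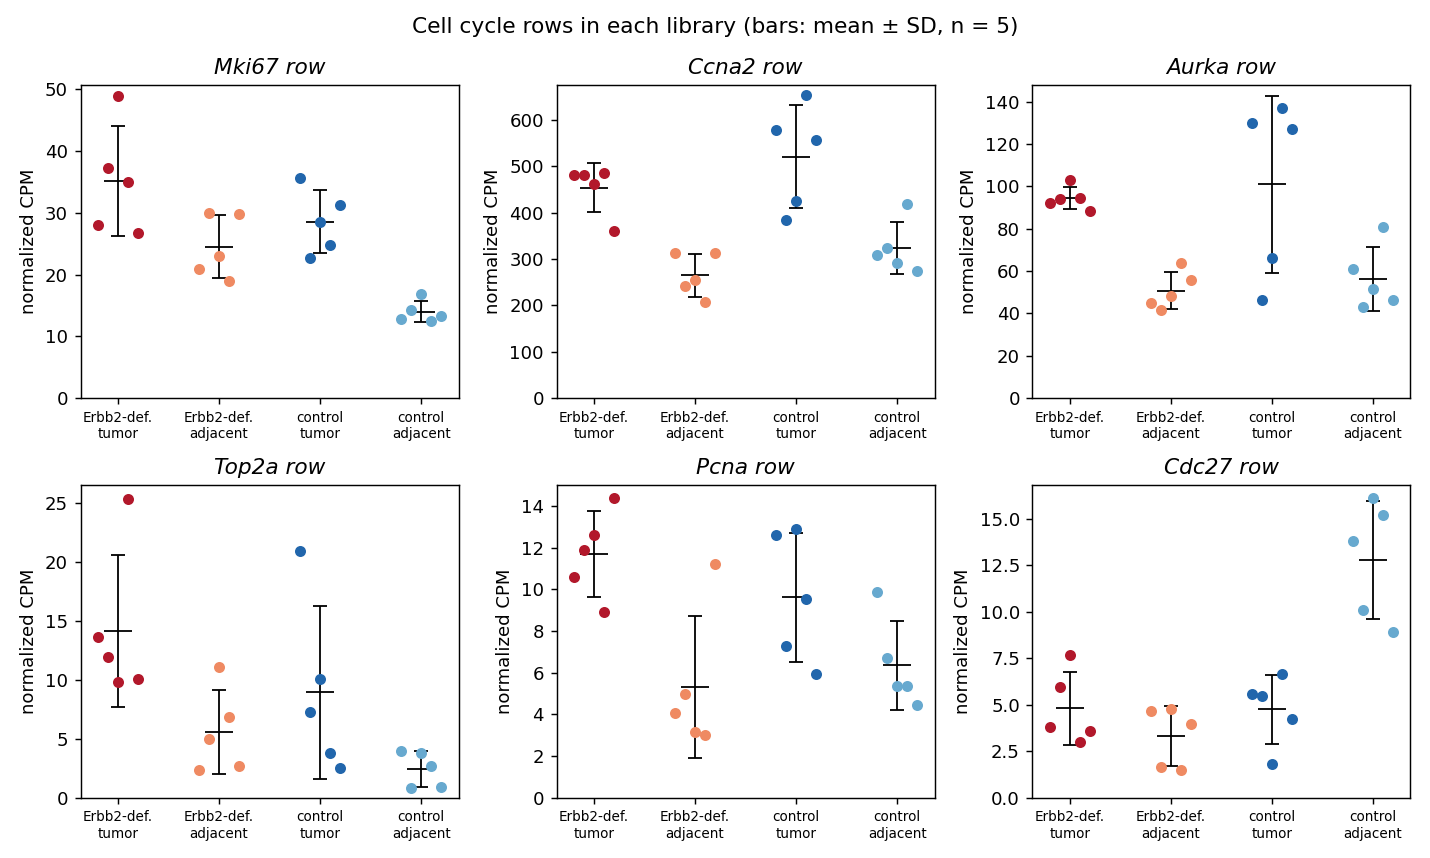
Normalized CPM (y axis) of each cell cycle row in the 20 libraries, by group of genotype and tissue (x axis); points are libraries and bars are the mean and SD of 5. All 5 Erbb2-deficient tumors lie above all Erbb2-deficient adjacent libraries for Ccna2 and Aurka, and Cdc27 is highest in control adjacent tissue, at 8.90 to 16.1 CPM.

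Ccna2 had 482, 480, 462, 485 and 360 CPM in Erbb2-deficient tumors, against 312, 242, 254, 207 and 312 CPM in Erbb2-deficient adjacent tissue. All 5 tumors lay above all 5 adjacent libraries, as in 11.9% of all rows tested. In control mice the Ccna2 row had 578, 385, 426, 653 and 556 CPM in tumors, against 309, 323, 291, 418 and 274 CPM in adjacent tissue. Here control tumor 2 overlapped control adjacent library 4, and the other 4 tumors lay above every adjacent library. Tumors exceeded adjacent tissue by 0.77 ± 0.18 SE on the log2 scale in Erbb2-deficient mice (adjusted p = 0.00335), and by 0.69 ± 0.18 SE in controls (adjusted p = 0.0100). Of 27 alternative settings the call held in all 27 in Erbb2-deficient mice. In control mice it was lost only with no filter on low counts (adjusted p = 0.125).

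Aurka had 92.2, 94.0, 103, 94.5 and 88.6 CPM in Erbb2-deficient tumors, against 44.8, 41.5, 48.4, 63.6 and 55.6 CPM in Erbb2-deficient adjacent tissue. The tumors lay close together and above every adjacent library. Control tumors had 130, 46.3, 66.2, 137 and 127 CPM, against 61.2, 42.8, 51.3, 80.7 and 46.3 CPM in control adjacent tissue. Control tumors 2 and 3 fell within the range of the adjacent libraries, and the other 3 control tumors were the highest values of the Aurka row. The SD was 5.16 CPM in Erbb2-deficient tumors and 41.9 CPM in control tumors, whose means were 94.4 and 101 CPM. On the log2 scale the Aurka difference was 0.89 ± 0.27 SE in Erbb2-deficient mice (adjusted p = 0.0177) and, in controls, 0.84 ± 0.27 SE (adjusted p = 0.0297). The Aurka call in Erbb2-deficient mice was lost with no filter (adjusted p = 0.0592). In control mice it was lost with no filter (0.118), with only the control groups fitted (0.117), without control tumor 1 (0.0722), 4 (0.0841) or 5 (0.0745), and without control adjacent library 2 (0.0704), 3 (0.0606) or 5 (0.0713). Without control tumors 2 and 3 the log2 fold change in control mice was 1.21 (adjusted p = 0.00029).

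Mki67 had 28.0, 37.3, 48.9, 35.0 and 26.7 CPM in Erbb2-deficient tumors, against 20.9, 29.9, 23.0, 18.9 and 29.8 CPM in Erbb2-deficient adjacent tissue. These groups overlapped, with 3 of 5 tumors above every adjacent library. In control mice the Mki67 row had 35.6, 22.7, 28.5, 24.8 and 31.3 CPM in tumors, against 12.8, 14.3, 16.8, 12.5 and 13.3 CPM in adjacent tissue. Every control tumor lay above every control adjacent library, as in 3.96% of all rows tested. In Erbb2-deficient mice the log2 fold change of 0.52 ± 0.23 SE did not pass (adjusted p = 0.0930), and in controls that of 1.03 ± 0.24 SE did (adjusted p = 0.00434). In control mice the call was lost only with no filter (adjusted p = 0.113).

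Top2a was a row of few counts. It had 13.6, 11.9, 9.78, 25.3 and 10.1 CPM in Erbb2-deficient tumors (14 to 34 counts), against 2.33, 4.99, 11.1, 6.81 and 2.65 CPM in Erbb2-deficient adjacent tissue (4 to 14 counts). Erbb2-deficient adjacent library 3 overlapped the tumors. Control tumors had 20.9, 7.26, 10.1, 3.81 and 2.54 CPM (3 to 30 counts), against 3.95, 0.84, 3.82, 2.69 and 0.89 CPM in control adjacent tissue (1 to 5 counts, 14 in all). Control tumors 1, 2 and 3 lay above every adjacent library, and control tumors 4 and 5 did not. The Top2a difference of 1.36 ± 0.52 SE (log2) in Erbb2-deficient mice did not pass (adjusted p = 0.0577), and that of 1.86 ± 0.60 SE in controls did (adjusted p = 0.0320). Without control tumor 1 the log2 fold change in control mice was 1.26 and the call was lost (adjusted p = 0.148). It was also lost without control adjacent library 2 (0.0751), 4 (0.0509) or 5 (0.0791). With only the control groups fitted the Top2a row did not pass the count filter and was not tested. In Erbb2-deficient mice Top2a was called in 10 of 27 alternatives, among them DESeq2 (0.0395), only the Erbb2-deficient groups (0.0214), the fit without Erbb2-deficient adjacent library 3 (log2 fold change 1.77, adjusted p = 0.0230) and that without control tumors 2 and 3 (0.0311). It was called there too without control tumor 1 (0.0336), 2 (0.0384), 3 (0.0473), 4 (0.0493) or 5 (0.0412).

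Pcna had 10.6, 11.9, 12.6, 8.93 and 14.4 CPM in Erbb2-deficient tumors (12 to 20 counts), against 4.07, 4.99, 3.17, 3.03 and 11.2 CPM in Erbb2-deficient adjacent tissue (4 to 17 counts). Adjacent library 5 lay within the range of the tumors, and the other 4 lay below all of them. Control tumors had 12.6, 7.26, 12.9, 9.52 and 5.93 CPM (7 to 18 counts), against 9.87, 6.72, 5.35, 5.38 and 4.45 CPM in control adjacent tissue (5 to 10 counts), and these groups overlapped. Tumors of Erbb2-deficient mice exceeded adjacent tissue by 1.11 ± 0.36 SE on the log2 scale (adjusted p = 0.0253), while the 0.61 ± 0.37 SE of controls did not pass (adjusted p = 0.252). The Pcna call in Erbb2-deficient mice was lost with no filter (0.146), when Erbb2-deficient tumor 5 (0.0505) was left out, and when adjacent library 1 (0.0617), 2 (0.0513), 3 (0.0579) or 4 (0.0610) of these mice was. Its adjusted p ranged from 0.00238 to 0.146 over the 27 alternatives.

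Cdc27 differed from the other members in control mice. In Erbb2-deficient mice it had 3.78, 5.97, 7.68, 2.98 and 3.60 CPM in tumors (4 to 11 counts), against 4.65, 1.66, 4.76, 1.51 and 3.97 CPM in adjacent tissue (2 to 8 counts), and these groups overlapped. Control tumors had 5.58, 5.45, 1.84, 6.66 and 4.24 CPM (2 to 8 counts), against 13.8, 10.1, 16.1, 15.2 and 8.90 CPM in control adjacent tissue (10 to 21 counts). Every control tumor lay below every control adjacent library, as in 6.66% of all rows tested. Cdc27 passed the filter mainly through control adjacent libraries, so this share carries no test. Its log2 fold change of 0.50 ± 0.41 SE in Erbb2-deficient mice did not pass (adjusted p = 0.381), and that of -1.41 ± 0.38 SE in controls did (adjusted p = 0.0118). In control mice the call held in 25 of 26 alternatives and was lost with no filter (adjusted p = 0.0793). With only the control groups fitted the Cdc27 row did not pass the count filter and was not tested.

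Smooth muscle marker rows differed strongly between these tissues. Of 8 tested, 7 fell in tumors of both genotypes. Of all rows, 14.5% were called lower and 13.0% higher in Erbb2-deficient tumors, and 10.9% and 10.7% in control tumors. They summed to 189 to 248 CPM in Erbb2-deficient tumors and 1010 to 1330 CPM in Erbb2-deficient adjacent tissue, and to 162 to 511 CPM in control tumors and 1000 to 2450 CPM in control adjacent tissue. Of 10 epithelial rows 1 fell in Erbb2-deficient tumors and 0 changed in control tumors, at 400 to 739 CPM in Erbb2-deficient tumors, 383 to 831 CPM in Erbb2-deficient adjacent tissue, 18.2 to 598 CPM in control tumors and 368 to 557 CPM in control adjacent tissue. Of 5 tested fibroblast rows 3 rose in Erbb2-deficient tumors and 0 changed in control tumors, at 69.2 to 203, 20.5 to 71.4, 28.1 to 101 and 20.5 to 133 CPM in the same groups. Lum, of that list, was at 0 in Erbb2-deficient tumors. B cell rows reached 403 CPM in control tumor 2, against 51.3 to 114 CPM in the other 19 libraries, and T cell rows 64.5 CPM, against 0 to 3.97 CPM. The T cell rows Cd3d, Cd3e and Cd8a were at 0 in Erbb2-deficient tumors and also in control adjacent tissue, where Cd2 was at 0 too. In Erbb2-deficient adjacent tissue Cd3d and Trac were at 0. Of 8 T cell rows 0 passed the count filter. The part of these tissue differences in the values of the cell cycle rows was not tested.

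The comparison of genotypes asked whether these rows differ with Erbb2 in tumors or in adjacent tissue, and no member passed in either tissue. EdgeR called 0 of 7119 rows, that is 0%, in tumors, in adjacent tissue and for the interaction of genotype and tissue. At an unadjusted p under 0.05 there were 817 rows (11.5%) in tumors, 418 (5.87%) in adjacent tissue and 290 (4.07%) for the interaction. DESeq2 called 26 rows in tumors, none of them a member, and 5 in adjacent tissue, of which Cdc27 was 1.

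In tumors the intervals of the genotype difference spanned 0 for all 6 rows. On the log2 scale of Erbb2-deficient over control tumors, the 95% interval ran from -0.57 to 0.18 for Ccna2 and from -0.66 to 0.45 for Aurka. It ran from -0.18 to 0.77 for Mki67, from -0.42 to 1.67 for Top2a, from -0.45 to 0.99 for Pcna and from -0.83 to 0.86 for Cdc27. Differences of 2-fold thus lay outside the interval for Ccna2, Aurka, Mki67, Pcna and Cdc27 and inside it for Top2a. The adjusted p was 0.667 to 0.993, and 0 of the 6 rows were free of overlap between the genotypes, beside 2.12% of all rows. The sign was not stable for Cdc27 or Aurka. Cdc27 (0.01) turned to -0.22 when Erbb2-deficient tumor 3 was left out, and Aurka (-0.10) turned to 0.02 when control tumor 4 was.

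In adjacent tissue 2 members did not overlap between the genotypes, as was so for 1.53% of all rows. Cdc27 had 1.51 to 4.76 CPM in Erbb2-deficient adjacent tissue, against 8.90 to 16.1 CPM in control adjacent tissue, and each Erbb2-deficient library lay below each control library, as in 0.801% of all rows. Its log2 fold change was -1.90 ± 0.39 SE, with unadjusted p = 8.04e-05 and adjusted p = 0.286. The adjusted p ranged from 0.0249 with DESeq2 to 0.701 over 26 alternatives, and DESeq2 alone called it. Mki67 had 18.9 to 29.9 CPM in Erbb2-deficient adjacent tissue, against 12.5 to 16.8 CPM in control adjacent tissue, and each Erbb2-deficient library lay above each control library, as in 0.730% of all rows. Its log2 fold change was 0.80 ± 0.24 SE, with unadjusted p = 0.00276 and adjusted p = 0.529 (range 0.296 to 0.961 over 27 alternatives). In edgeR's fit neither row passed once all rows were counted. Cdc27 exceeded the filter in 4 control adjacent libraries and 0 Erbb2-deficient adjacent libraries, so it passed mainly through a group compared here. The members were also chosen with earlier results of these data known. The shares without overlap are therefore a description and carry no test. Smooth muscle rows summed to 1010 to 1330 CPM (median 1200) in Erbb2-deficient and 1000 to 2450 CPM (median 1730) in control adjacent tissue. Of these 8 rows 0 passed between the groups. As 0 of all 7119 rows passed there, this count says nothing on muscle content. Its part in the values of the cell cycle rows was not tested.

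For the other 4 rows the adjacent groups overlapped. The 95% interval of the log2 fold change of Erbb2-deficient over control adjacent tissue ran from -0.66 to 0.09 for Ccna2, from -0.71 to 0.41 for Aurka, from -1.03 to 0.56 for Pcna and from -0.17 to 2.44 for Top2a. The Top2a interval thus also holds differences of over 4-fold, from 37 counts in all in Erbb2-deficient and 14 in control adjacent tissue.

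The interaction gives the tumor difference in Erbb2-deficient mice minus that in control mice on the log2 scale. It was 1.91 ± 0.56 SE for Cdc27 (95% interval 0.74 to 3.08, unadjusted p = 0.00272, adjusted p = 1.0), positive in all 26 alternatives and called in none of them. For Mki67 it was -0.51 ± 0.33 SE, for Pcna 0.51 ± 0.51 SE, for Top2a -0.51 ± 0.78 SE, for Ccna2 0.09 ± 0.25 SE and for Aurka 0.05 ± 0.38 SE, each with an interval that spans 0. No interaction passed adjustment, that of Cdc27 included. Calls in only 1 genotype, as for Mki67, Top2a, Pcna and Cdc27, were therefore not shown to be differences between genotypes.

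**Figure D2:**
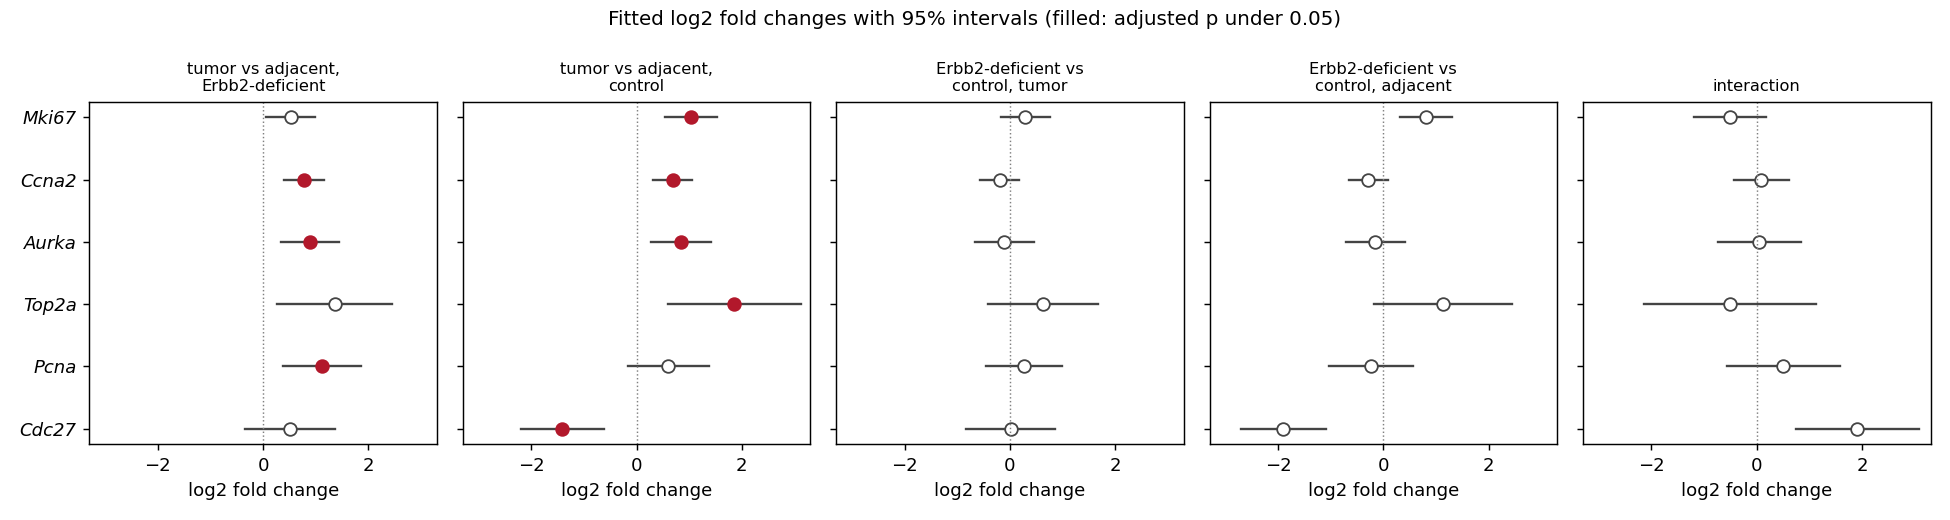
Fitted log2 fold changes (x axis) of the 6 rows with 95% intervals in the 5 comparisons, 1 panel each; filled points have an adjusted p under 0.05. Filled points stand in the panels of tumor against adjacent tissue, 3 in Erbb2-deficient mice and 5 in control mice, and none in the genotype and interaction panels.

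Ordered by group mean, Mki67 and Top2a ran from Erbb2-deficient tumors through control tumors and Erbb2-deficient adjacent tissue to control adjacent tissue. For Mki67 these means were 35.2 ± 8.90, 28.6 ± 5.15, 24.5 ± 5.08 and 14.0 ± 1.73 CPM (SD, n = 5 each), and only the last pair of neighbours did not overlap. For Top2a they were 14.1 ± 6.43, 8.93 ± 7.34, 5.58 ± 3.59 and 2.44 ± 1.52 CPM, and all neighbours overlapped. Ccna2 and Aurka ran from control tumors through Erbb2-deficient tumors and control adjacent tissue to Erbb2-deficient adjacent tissue. For Ccna2 the means were 520 ± 111, 454 ± 53.1, 323 ± 56.0 and 265 ± 46.3 CPM, and all neighbours overlapped. For Aurka they were 101 ± 41.9, 94.4 ± 5.16, 56.4 ± 15.2 and 50.8 ± 8.84 CPM, and Erbb2-deficient tumors did not overlap control adjacent tissue. Pcna ran from Erbb2-deficient tumors (11.7 ± 2.07) through control tumors (9.63 ± 3.10) and control adjacent (6.35 ± 2.13) to Erbb2-deficient adjacent tissue (5.30 ± 3.41 CPM), with all neighbours overlapping. Cdc27 was highest in control adjacent tissue (12.8 ± 3.17), which overlapped no other group, followed by Erbb2-deficient tumors (4.80 ± 1.97), control tumors (4.75 ± 1.84) and Erbb2-deficient adjacent tissue (3.31 ± 1.60 CPM).

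The rows on the other strand were followed beside the members. Exosc9, opposite Ccna2, had 992, 920, 1080, 1120 and 682 CPM in Erbb2-deficient tumors, against 553, 564, 692, 363 and 923 CPM in Erbb2-deficient adjacent tissue. In control mice it had 1420, 408, 1470, 1450 and 1340 CPM in tumors, against 697, 571, 860, 684 and 289 CPM in adjacent tissue. Control tumor 2 was thus far below the other control tumors, and these 4 lay above every control adjacent library. Exosc9 did not pass in Erbb2-deficient mice (log2 fold change 0.63 ± 0.31 SE, adjusted p = 0.140), and rose in control tumors (0.97 ± 0.32 SE, adjusted p = 0.0319). Over the 20 libraries, which share the scaling and the 4 groups, Ccna2 and Exosc9 had a Spearman rho of 0.76. Under the strand pattern described above, reads of Exosc9 would fall in the Ccna2 row over the shared exon bases. Reads of Ccna2 would likewise fall in the Exosc9 row. How much of either row comes from either gene was not tested.

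Myl4, an atrial myosin light chain gene beside Cdc27, had 27.4 to 70.1 CPM in Erbb2-deficient tumors, 22.5 to 125 CPM in Erbb2-deficient adjacent tissue, 23.8 to 154 CPM in control tumors and 11.6 to 145 CPM in control adjacent tissue. It was called in 0 of the 5 comparisons, and its rho with Cdc27 was 0.03. Cstf1 and Fam210b, beside Aurka, held at most 12 and 9 counts in a library, and AV099323, beside Pcna, at most 2, so these 3 rows were not tested. At these few counts, rho was 0.31 between Aurka and Cstf1, 0.56 between Aurka and Fam210b and 0.27 between Pcna and AV099323. Cstf1 and Fam210b both had higher mean CPM in tumors than in adjacent tissue of each genotype. Among the members, rho was 0.82 between Ccna2 and Aurka, and 0.53 to 0.57 between Mki67 and each of Ccna2, Aurka, Top2a and Pcna. Between Mki67 and Cdc27 it was -0.44.

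**Figure D3:**
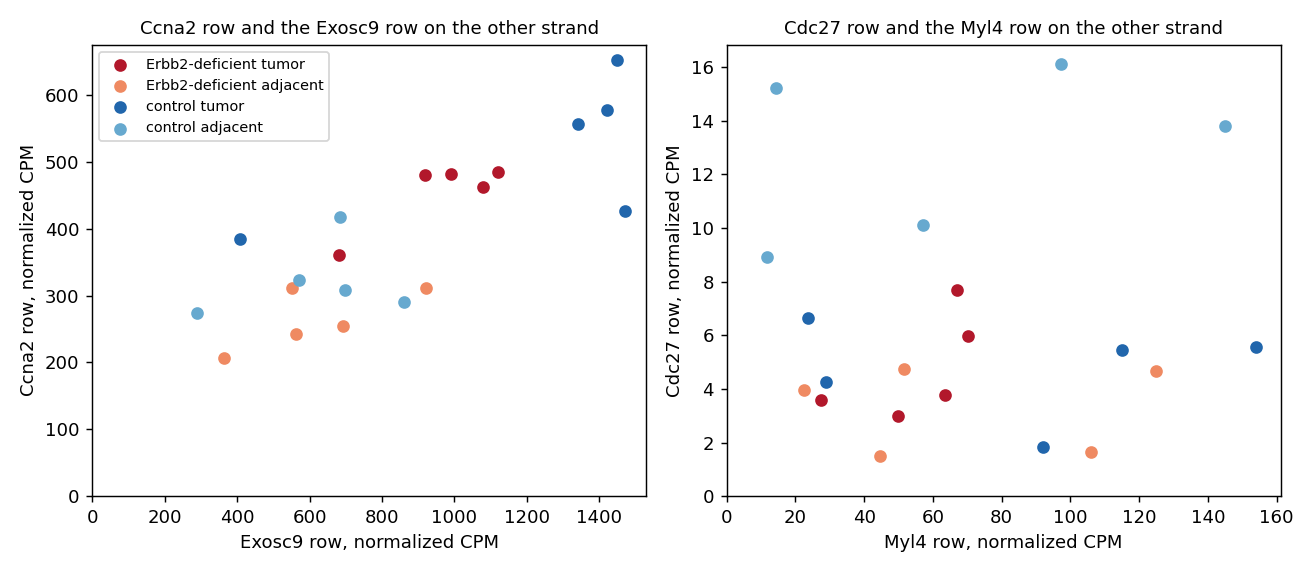
Normalized CPM of Ccna2 against Exosc9 (left) and of Cdc27 against Myl4 (right), where each point is 1 of the 20 libraries and colors give the group. Exosc9 and Ccna2 are both higher in most tumors, with control tumor 2 low in Exosc9 at 408 CPM, and Cdc27 shows no trend with Myl4.

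Rows of the wider cell cycle machinery were called in shares near those of all rows. Of 157 listed genes 52 passed the count filter, and 10 of these (19.2%) were called in Erbb2-deficient and 12 (23.1%) in control mice between tumor and adjacent tissue, members included. These shares stand beside 27.5% and 21.6% of all rows. Nearly all called rows were higher, 9 of 10 in Erbb2-deficient and 11 of 12 in control mice. The rows called higher were 17.3% and 21.2% of the listed rows tested, beside 13.0% and 10.7% of all rows. Those called lower were 1.92% in each genotype, beside 14.5% and 10.9% of all rows. The median log2 fold change of the 52 rows was 0.37 in Erbb2-deficient and 0.34 in control mice, against -0.06 and 0.07 over all rows. Of the 22 listed rows with no exon of another gene on the other strand, 5 rose and 1 fell in Erbb2-deficient mice. In control mice 6 rose and 1 fell, and the same shares of all rows stand beside these counts. Without control tumors 2 and 3, 57 listed rows were tested and 21 (14 higher, 7 lower) were called in Erbb2-deficient and 20 (14 higher, 6 lower) in control mice, beside 37.0% and 32.0% of all rows. None of the 52 rows was called between genotypes or for the interaction, nor was any other row tested. The lists below had 3 to 15 tested rows each, and the same shares of all rows stand beside their counts.

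The anaphase-promoting complex and its activators had 5 of 18 rows tested, of which 3 rose in Erbb2-deficient mice, and 2 rose and 1, Cdc27, fell in control mice. Cdc23, another scaffold subunit of the complex, averaged 1320 ± 199 CPM in Erbb2-deficient tumors and 533 ± 133 CPM in Erbb2-deficient adjacent tissue, and 1490 ± 560 CPM in control tumors and 519 ± 163 CPM in control adjacent tissue (SD, n = 5 each). This was a log2 fold change of 1.31 ± 0.29 SE in Erbb2-deficient (adjusted p = 0.00214) and 1.52 ± 0.29 SE in control mice (adjusted p = 0.00102), called in all 27 alternatives in both. The Cdc23 row lies opposite exons of Kif20a, a kinesin of cytokinesis. Anapc13, a small subunit opposite Cep63, rose by 0.97 ± 0.26 SE in Erbb2-deficient (adjusted p = 0.00844) and 0.84 ± 0.27 SE in control mice (adjusted p = 0.0287). With no filter neither call of Anapc13 held (0.0862 in Erbb2-deficient and 0.234 in control mice). The control call held in 19 of 27 alternatives, and was lost, among others, with only the control groups fitted (0.0897), without control tumor 1 (0.0576), 3 (0.0543) or 5 (0.0546) and without control adjacent library 1 (0.0705) or 5 (0.0808). Anapc11, the RING subunit beside Alyref, rose in Erbb2-deficient mice (log2 fold change 1.28 ± 0.40 SE, adjusted p = 0.0211) and had 0.94 ± 0.40 SE in control mice (adjusted p = 0.10), where it was called without control tumor 2 (0.0286), 3 (0.0415) or both (0.00526). The Cdc27 row thus went in the opposite direction to the Cdc23 and Anapc13 rows in control tumors. Whether the transcripts of these genes do so was not tested, since a row need not hold its gene's transcript.

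Mitotic entry and checkpoint genes had 7 of 21 rows tested, of which 2 rose (Ccna2 and Aurka) and 1 fell in Erbb2-deficient mice, and 3 rose in control mice. The row that fell was Plk4, the kinase that starts centriole duplication, at 6.13 ± 2.06 CPM in Erbb2-deficient tumors and 15.8 ± 4.42 CPM in Erbb2-deficient adjacent tissue (log2 fold change -1.35 ± 0.39 SE, adjusted p = 0.0137, called in all 27 alternatives). In control mice the value of Plk4 was -0.61 ± 0.38 SE (adjusted p = 0.263). Nek2, a centrosomal kinase, rose in control mice (1.19 ± 0.37 SE, adjusted p = 0.0247), a call that held in 20 of 27 alternatives. Among others, it was lost with no filter (0.0611), with only the control groups fitted (0.119), without control tumor 1 (0.0794), 4 (0.0506) or 5 (0.0564) and without control adjacent library 5 (0.0619). Nek2 had 0.62 ± 0.36 SE in Erbb2-deficient mice (adjusted p = 0.207), where it was called with only those groups fitted (0.0390).

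Spindle, kinetochore and chromosome structure genes had 14 of 41 rows tested, of which 1 rose in Erbb2-deficient mice and 4 rose in control mice, Mki67 and Top2a among these. Ncapd2, a condensin subunit, averaged 41.0 ± 6.30 CPM in Erbb2-deficient tumors and 23.3 ± 4.35 CPM in Erbb2-deficient adjacent tissue, and 46.8 ± 15.8 CPM in control tumors and 25.9 ± 4.25 CPM in control adjacent tissue. It rose by 0.81 ± 0.25 SE on the log2 scale in Erbb2-deficient (adjusted p = 0.0191) and 0.85 ± 0.25 SE in control mice (adjusted p = 0.0187). With no filter neither call of Ncapd2 held (0.156 in Erbb2-deficient and 0.178 in control mice). The control call held in 23 of 27 alternatives, and was lost, among others, with only the control groups fitted (0.0782) and without control tumor 5 (0.0683). Incenp, the inner centromere scaffold of Aurora B, rose in control mice (0.99 ± 0.32 SE, adjusted p = 0.0301). This call was lost with no filter (0.125), with only the control groups fitted (0.0839), without control tumor 1 (0.0610), 3 (0.0520) or 4 (0.0556) and without control adjacent library 2 (0.0785) or 5 (0.0830). In Erbb2-deficient mice Incenp had 0.68 ± 0.31 SE (adjusted p = 0.108).

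DNA replication genes had 15 of 44 rows tested, of which 1, Pcna, rose in Erbb2-deficient mice and 0 changed in control mice. Pole2, a subunit of polymerase epsilon, had log2 fold changes of -1.23 ± 0.48 SE in Erbb2-deficient (adjusted p = 0.0596) and -0.21 ± 0.47 SE in control mice (adjusted p = 0.784). Pola2, of polymerase alpha, had 0.86 ± 0.52 SE in Erbb2-deficient (adjusted p = 0.237) and -1.34 ± 0.54 SE in control mice (adjusted p = 0.0809). Tk1, thymidine kinase opposite Afmid, had -0.63 ± 0.28 SE in Erbb2-deficient (adjusted p = 0.0945) and -0.67 ± 0.28 SE in control mice (adjusted p = 0.0888). Pole2 was called lower in Erbb2-deficient tumors with DESeq2 (0.0385), with only the Erbb2-deficient groups fitted (0.0319), and without Erbb2-deficient tumor 1 (0.0336), control tumor 2 (0.0265) or control tumors 2 and 3 (0.0313). In control tumors Pola2 was called lower without control adjacent library 4 (0.0445), and Tk1 without control tumor 3 (0.0238) or control tumors 2 and 3 (0.0109).

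Among the G1 and S regulators 8 of 18 rows were tested, and 1 rose in each genotype, the transcription factor E2f3. E2f3 averaged 18.8 ± 11.5 CPM in Erbb2-deficient tumors and 5.44 ± 1.45 CPM in Erbb2-deficient adjacent tissue, and 20.7 ± 7.37 CPM in control tumors and 6.72 ± 2.64 CPM in control adjacent tissue. Its log2 fold change was 1.78 ± 0.41 SE in Erbb2-deficient (adjusted p = 0.00303) and 1.60 ± 0.41 SE in control mice (adjusted p = 0.00847), called in all 27 alternatives in both. No gene of GENCODE M21 lay opposite it or beside it within 1000 bases. Cyclin E2 (Ccne2, opposite Ints8) and cyclin D2 (Ccnd2) passed in neither genotype, at 0.27 and -0.08 in Erbb2-deficient mice and 0.49 and -0.71 in controls, where the adjusted p was 0.0627 and 0.177. Ccne2 was called higher in control tumors with DESeq2 (0.0342), and without control tumor 3 (0.0283), control tumors 2 and 3 (0.0278) or control adjacent library 4 (0.0495). Ccnd2 was called lower there without control tumor 2 (0.0195) or control tumors 2 and 3 (0.0193). Cyclin E1 (Ccne1) had 335 CPM in control tumor 2 and at most 2.86 CPM in the other 9 tumors, against 2.27 to 16.7 CPM in Erbb2-deficient and 3.82 to 18.7 CPM in control adjacent tissue. Its log2 fold change was -2.87 ± 1.61 SE in Erbb2-deficient mice (adjusted p = 0.194) and 2.93 ± 1.23 SE in control mice (adjusted p = 0.0956). Without control tumor 2 the Ccne1 row was called lower in tumors of Erbb2-deficient (adjusted p = 0.00541) and control mice (adjusted p = 0.0135). Without control tumors 2 and 3 it was called lower too (0.00545 in Erbb2-deficient and 0.0145 in control mice), and without control tumor 3 alone it was called higher in control tumors (0.0429).

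Among inhibitors of the cycle 3 of 15 rows were tested, and 1 rose in each genotype, Cdkn1c, which encodes the cyclin-dependent kinase inhibitor p57. The Cdkn1c row lies opposite Gm44732. It had 21.9, 32.1, 32.8, 25.3 and 12.2 CPM in Erbb2-deficient tumors, against 1.16, 2.49, 0.794, 4.54 and 1.98 CPM in Erbb2-deficient adjacent tissue. In control mice it had 27.2, 0, 7.36, 21.9 and 28.8 CPM in tumors, against 2.96, 4.20, 8.41, 4.48 and 2.67 CPM in adjacent tissue. Control tumor 2 thus had no count, and control tumor 3 lay within the adjacent range. Cdkn1c thus rose by 3.46 ± 0.67 SE on the log2 scale in Erbb2-deficient (adjusted p = 0.000857, called in all 27 alternatives) and 1.87 ± 0.63 SE in control mice (adjusted p = 0.0383). The control call of Cdkn1c held in 18 of 26 alternatives. Among others, it was lost without control tumor 1 (0.0894), 4 (0.0738) or 5 (0.0969) and without control adjacent library 1 (0.0792), 2 (0.0712), 4 (0.0668) or 5 (0.0882). The other tested rows, the antiproliferative gene Btg1 and the retinoblastoma relative Rbl2, had -0.50 and 0.18 in Erbb2-deficient and 0.80 and -0.14 in control mice, with adjusted p of 0.486 to 0.748.

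**Figure D4:**
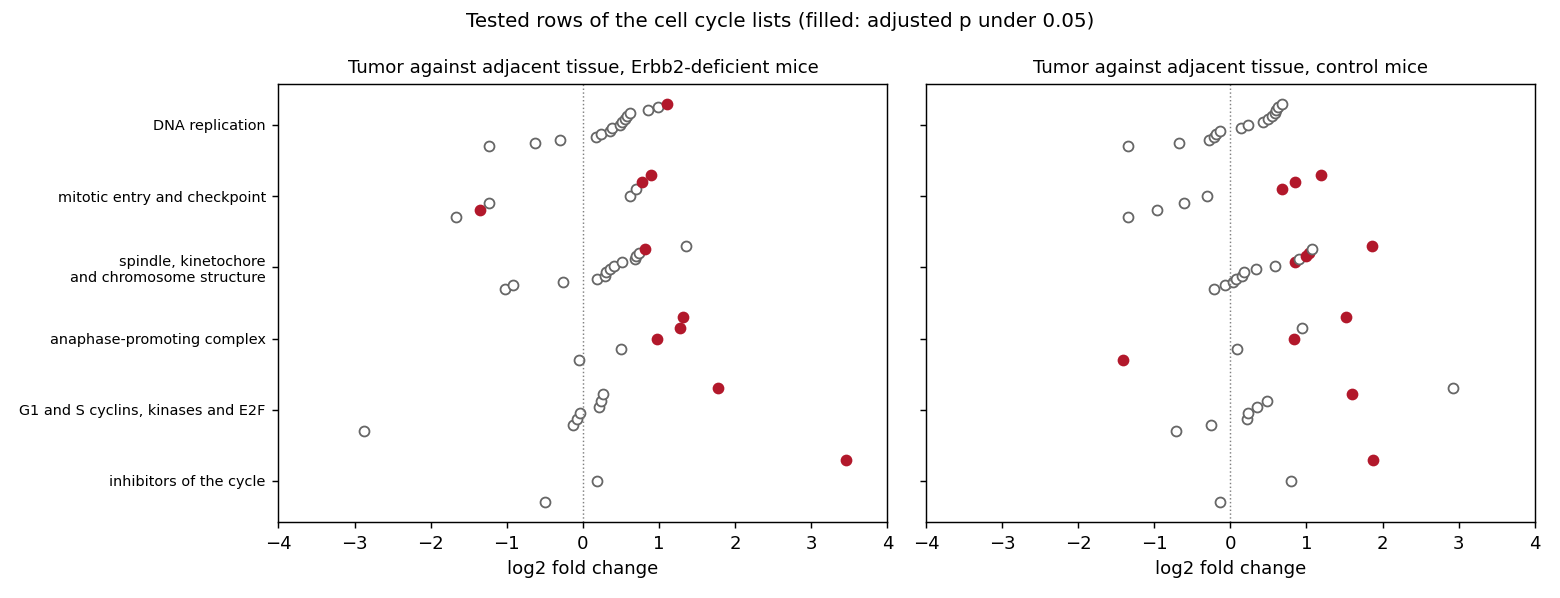
Log2 fold changes of tumor against adjacent tissue (x axis) for the tested rows of the 6 cell cycle lists (y axis), in Erbb2-deficient and control mice; each point is a row, filled where its adjusted p was under 0.05. Filled points lie to the right of 0 except for Plk4 in Erbb2-deficient and Cdc27 in control mice, and the highest filled point is Cdkn1c in Erbb2-deficient mice at 3.46.

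The rows most like each member in log2 CPM over the 20 libraries, are given with Spearman's rho. For Mki67 they were Bmp7 (0.93), a bone morphogenetic protein, Fgfrl1 (0.86) and Stmn1 (0.85), a regulator of microtubules. For Ccna2 they were Nox1 (0.97), the NADPH oxidase of colon epithelium, Acat3 (0.97) and Mettl5 (0.96), which lie opposite Cstf2, Tcp1 and Ssb in that order. For Aurka they were Gm46406 (0.94), Gm52858 (0.94) and Fbxl19 (0.93). Lower values were reached for Top2a, with Serbp1, Psmd3 and Rab5a (each 0.88), and for Pcna, with Rtraf (0.80), Tbc1d30 (0.79) and Tgif1 (0.79). For Cdc27 they were Snrnp35 (0.78), Brf2 (0.72) and Gm32715 (0.70). Libraries share the scaling, the tissue groups and, for the last 3 members, few counts, so these values describe the libraries and carry no test.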

How the data were processed

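RNA from 20 samples was sequenced after library preparation with TruSeq Stranded mRNA, per the labels' protocols. The deposited values are unnormalized read counts per gene symbol. Per the submitters' processing notes, Trimmomatic, HISAT2 2.2.1, HTSeq 2.0.2, DESeq2 and build mm39 were used; their roles, and the strand setting of the counting, were not given in the sources used here. Of the reads in a file, 78.6% to 85.1% fell on no counted feature, and the 5 summary rows were left out. Groups came from the labels. EdgeR 4.0.16 in R 4.3.3 tested the counts: filterByExpr by group (minimum count 10; 7119 rows kept), TMM, a means model of 4 groups on all 20 libraries, robust quasi-likelihood F tests and Benjamini-Hochberg adjustment at 0.05. The SE is the size of the log2 fold change divided by the square root of F, and intervals cover 95%. Low rows carry large counting error. The fit was tested on simulated counts.

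The 27 alternatives were DESeq2 1.42.0, RLE and upper-quartile scaling, no filter, only the 2 groups compared (not for the interaction), a replicate block, the fit without control tumors 2 and 3, and each library left out. Opposite-strand genes were named from GENCODE M21 (GRCm38), which is not the build of the counts, so no coordinate was taken from it. Promoters are RefSeq's on GRCm38.p6. The members, gene lists and tests were chosen with earlier results of these data known. Named are the 6 members with their opposite-strand rows, for each cell cycle list up to 4 tested rows of smallest p in either genotype, and for each member the 3 rows of highest Spearman correlation. Plk1, Pkmyt1 and Nusap1 are named besides, for their calls under alternatives. Whether a tumor and an adjacent sample came from the same mouse is not stated, and p-values rest on the spread of the libraries of a group.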

Additional observations from a re-analysis of the deposited data

Results flagged for a closer look

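In 4 of 32 groups of 5 libraries, for the 6 members and the 2 tested opposite-strand rows, 1 library lay far from the other 4 by Dixon's test at its 95% critical value of 0.71; chance alone gives about 1 in 20. Ccna2 was 360 CPM in Erbb2-deficient tumor 5, below 462 to 485 CPM in the other Erbb2-deficient tumors. Top2a was 25.3 CPM in Erbb2-deficient tumor 4, above 9.78 to 13.6 CPM in the others of that group. Pcna was 11.2 CPM in Erbb2-deficient adjacent library 5, above 3.03 to 4.99 CPM in the others. Exosc9, opposite Ccna2, was 408 CPM in control tumor 2, below 1340 to 1470 CPM in the other control tumors.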

How the results depend on the processing

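Of 796 values of the 6 rows under the alternatives, 749 kept their direction and their side of the threshold, 22 lost the call, 11 gained it and 14 changed sign. None of the 14 was called. They were Cdc27 between tumors (-0.0156 with the replicate block, -0.145 without control tumors 2 and 3, and -0.217 to 0.138 with single libraries left out, below 0 for 4 of them), Aurka between tumors (-0.278 to 0.0236 with single libraries left out, above 0 for 1), and the interaction of Ccna2 (-0.0469 without control tumors 2 and 3, -0.00727 to 0.195 with single libraries left out), Aurka (-0.261 without control tumors 2 and 3, -0.102 to 0.2 with single libraries left out) and Top2a (-0.796 to 0.118 with single libraries left out). With no filter, 2310 rows and 1 member were called in Erbb2-deficient mice, and 1512 rows and 1 member in control mice, of 27672 rows tested. Fitted on the control groups alone, 593 rows of 5392 and 2 members of the 3 that were still tested were called. Without control tumors 2 and 3, 2939 rows were called in Erbb2-deficient and 2544 in control mice, and 1 row between adjacent tissues; the cause was not tested. DESeq2 called 26 rows between tumors, and 5 rows and 1 member between adjacent tissues, where no filter gave 1 row. With each library left out in turn, 1573 to 2719 rows and 2 to 4 members were called in Erbb2-deficient mice, 1188 to 2127 rows and 3 to 5 members in control mice, 0 to 2 rows between adjacent tissues, and 0 to 0 rows between tumors and for the interaction. The 2719 rows came without control tumor 2 and the 2127 without control tumor 3. Neither other scaling changed a call of a member. Top2a, Pcna and Cdc27 held 1 to 34 counts per library, a depth at which counting error is large.

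The labels do not say what a replicate number marks, and the data did not settle whether the numbers pair the samples. Same-numbered tumor and adjacent libraries of a genotype had correlated deviations of -0.12 to 0.37, over 0.1 in 6 of 10 pairs, and 4 of 10 tumors correlated best with their own number. Across genotypes the range was -0.26 to 0.43. With the replicate block 1989 rows and 4 members were called in Erbb2-deficient mice, 1428 rows and 5 members in control mice, and 0 rows in the other comparisons; Top2a in Erbb2-deficient mice gained its call (adjusted p = 0.0258). Of the other listed cell cycle rows, the block ended the control calls of Nek2 (0.0817), Ncapd2 (0.0538), Anapc13 (0.0611) and Cdkn1c (0.151). With the block, Nusap1 was called higher in Erbb2-deficient tumors (log2 fold change 0.781, adjusted p = 0.0458). Pkmyt1 was called lower in control tumors (log2 fold change -1.53, adjusted p = 0.0451).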

Other observations

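The rows that lie opposite the listed cell cycle genes, themselves in no list, are described by their counts. This list was chosen after the data had been seen. Of 28 tested, 7 rose and 2 fell in Erbb2-deficient tumors, and 7 rose and 1 fell in control tumors, beside 27.5% and 21.6% of all rows called. LTO1, opposite the cyclin gene Ccnd1, averaged 2500 CPM in Erbb2-deficient tumors and 926 CPM in Erbb2-deficient adjacent tissue, and 2920 CPM in control tumors and 1440 CPM in control adjacent tissue. Its log2 fold change was 1.44 ± 0.23 SE in Erbb2-deficient (edgeR adjusted p = 0.000195) and 1.02 ± 0.23 SE in control mice (adjusted p = 0.00367). Rccd1, opposite the midzone protein gene Prc1, averaged 342 CPM in Erbb2-deficient tumors and 123 CPM in Erbb2-deficient adjacent tissue (log2 fold change 1.48 ± 0.39 SE, adjusted p = 0.00811), and 338 CPM in control tumors and 128 CPM in control adjacent tissue (1.40 ± 0.39 SE, adjusted p = 0.0149). Ubxn6, opposite the chromatin assembly gene Chaf1a, rose by 0.93 ± 0.26 SE in Erbb2-deficient (adjusted p = 0.0103) and 0.91 ± 0.26 SE in control mice (adjusted p = 0.0155). Afmid, opposite Tk1, rose by 0.57 ± 0.19 SE in Erbb2-deficient (adjusted p = 0.0334) and 0.80 ± 0.20 SE in control mice (adjusted p = 0.00658), while the Tk1 row itself had -0.63 and -0.67 and passed in neither. Mfsd12, opposite the anaphase-promoting complex activator gene Fzr1, averaged 34 CPM in Erbb2-deficient tumors and 100 CPM in Erbb2-deficient adjacent tissue (-1.55 ± 0.48 SE, adjusted p = 0.0205), and 53.6 CPM in control tumors and 138 CPM in control adjacent tissue (-1.37 ± 0.47 SE, adjusted p = 0.0448). Under the strand pattern described above, reads of the cell cycle gene opposite would fall in these rows wherever exons are shared. How much of each row comes from either gene was not tested.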
